A study of Mus musculus with 38 samples.

Results

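Fatty acids enter peroxisomes as acyl-CoAs and are shortened there by a cycle of oxidation, hydration, dehydrogenation and thiolysis. Messenger RNA of 9 genes of this pathway was measured in mouse liver across diets and times: Ehhadh, Hsd17b4, Acaa1a, Acaa1b, Abcd2, Abcd3, Pex11a, Ech1 and Eci2. They were chosen by symbol, with earlier results of these data known. Shares of all genes beside their counts therefore give a scale and are not independent support. All 9 were found among the 21954 genes of the count table. All 9 passed the filter on low counts that left 13786 genes for testing.

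The libraries came from livers of wild-type female C57BL/6 mice. Ad libitum (AL) mice had free access to food and are represented by 3 libraries at each of 0, 14 and 22 h and by 2 at 6 h. Mice on calorie restriction (CR), a limited daily ration, are represented by 2 libraries at 0 h, 4 at 22 h and 3 at both 6 and 14 h. For fasting (F) there are 3 libraries per time, at 6, 14 and 22 h. At zeitgeber time 18, counted from lights on, CR mice were taken either after their meal (CR_fed, 3 libraries) or with the meal omitted (CR_missed, 3 libraries). Groups are written as diet and hour, and a library as group and replicate, such as F_22h 2. The event that starts the clock of hours is not named in the labels, and neither is it stated that replicates were separate animals, so p-values measure the spread between these samples, which may be technical. The labelled ages run from 5 to 44 months in sample order, and each library has its own age. If these labels are right, replicates of a group differed in age, so that their spread was not technical alone. The effects of age and of diet or hour could then not be told apart.

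Peroxisomes take up very long-chain, branched and dicarboxylic fatty acids, and also some long-chain ones, and pass shortened products on to mitochondria. In rodent liver many genes of the pathway are textbook targets of PPARA, a nuclear receptor that binds fatty acids, and their messenger RNA is known to rise when food is withheld. Abcd2 and Abcd3 encode transporters in the peroxisomal membrane that work as dimers and carry acyl-CoAs inward. Ehhadh and Hsd17b4 encode the L- and D-bifunctional enzymes, each of which hydrates and then dehydrogenates the acyl chain, and Acaa1a and Acaa1b encode thiolases that release acetyl-CoA. Ech1 and Eci2 encode isomerases that shift double bonds of unsaturated chains, and Pex11a encodes a membrane protein that promotes elongation and division of the organelle.

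The thiolase genes lie near each other on chromosome 9, Acaa1b on the minus strand at chr9:119148023-119157093 and Acaa1a on the plus strand at chr9:119339676-119350299 (GRCm38, GENCODE vM21). Their coding sequences are each 1275 bases long and align without gaps, with 1231 identical bases (96.5%). The first 120 coding bases, in exons of both genes, are shown because they bear on how reads of the pair were divided. The 4 bases that differ are in capitals.

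Acaa1a coding start: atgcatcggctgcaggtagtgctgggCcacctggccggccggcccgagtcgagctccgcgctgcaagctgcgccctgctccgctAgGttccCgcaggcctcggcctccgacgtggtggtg
Acaa1b coding start: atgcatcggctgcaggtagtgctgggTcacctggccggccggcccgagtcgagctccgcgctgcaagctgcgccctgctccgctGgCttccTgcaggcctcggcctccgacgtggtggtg

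Reads were 150 bases long and were aligned with at most 2 mismatches. Of the 1613 windows of 150 bases in the Acaa1a transcript, 205 (12.7%) also occur in Acaa1b. Of the 1126 coding windows of that length, 439 (39.0%) differ at 2 or fewer positions, so part of the reads could be placed on either gene and the split between them rests on the estimate made by RSEM. Values of each thiolase gene are uncertain to that extent, and tests of their summed counts are given beside the results of either gene that passed.

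Outside the coding sequence the genes differ. The RefSeq promoter windows (GRCm38.p6), from 250 bases before to 50 after the start site, were matched by symbol for 7 of the 9 genes, with 8 windows in all because Abcd3 has 2. Those of 4 genes are printed, the pair of thiolases and the genes with the largest responses to food withdrawal, Ehhadh and Pex11a. Ehhadh lies at chr16:21761287-21787807 and its window at chr16:21787785-21788084, both on the minus strand. Pex11a lies at chr7:79735957-79743131 and its window at chr7:79743082-79743381, also on the minus strand. The windows of Acaa1a and Acaa1b are chr9:119341044-119341343 (plus strand) and chr9:119157044-119157343 (minus strand). Capitals mark CCAAT boxes (CCAAT or its reverse complement) and GC boxes (GGGCGG or its reverse complement).

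Ehhadh promoter: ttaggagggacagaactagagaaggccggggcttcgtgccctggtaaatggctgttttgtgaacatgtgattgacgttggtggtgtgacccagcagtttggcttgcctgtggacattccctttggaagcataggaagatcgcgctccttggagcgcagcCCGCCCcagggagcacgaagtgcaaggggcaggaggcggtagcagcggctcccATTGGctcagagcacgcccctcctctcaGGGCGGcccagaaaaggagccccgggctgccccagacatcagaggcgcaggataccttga
Pex11a promoter: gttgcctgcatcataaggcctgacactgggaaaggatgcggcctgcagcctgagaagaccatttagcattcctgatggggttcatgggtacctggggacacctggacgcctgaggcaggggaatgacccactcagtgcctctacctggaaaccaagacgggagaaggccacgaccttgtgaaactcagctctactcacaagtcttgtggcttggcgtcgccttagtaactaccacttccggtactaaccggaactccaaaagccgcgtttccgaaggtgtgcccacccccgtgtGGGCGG
Acaa1a promoter: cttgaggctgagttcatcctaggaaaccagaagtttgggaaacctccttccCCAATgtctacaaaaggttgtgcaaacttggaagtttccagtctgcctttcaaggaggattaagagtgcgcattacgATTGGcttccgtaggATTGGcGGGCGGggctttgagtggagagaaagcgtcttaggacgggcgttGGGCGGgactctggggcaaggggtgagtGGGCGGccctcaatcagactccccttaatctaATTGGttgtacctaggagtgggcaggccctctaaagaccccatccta
Acaa1b promoter: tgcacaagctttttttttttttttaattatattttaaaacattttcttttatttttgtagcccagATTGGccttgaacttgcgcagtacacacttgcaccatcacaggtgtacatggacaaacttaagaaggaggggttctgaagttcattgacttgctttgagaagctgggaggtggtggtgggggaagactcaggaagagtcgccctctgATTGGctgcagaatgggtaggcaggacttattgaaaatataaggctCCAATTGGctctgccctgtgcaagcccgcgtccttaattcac

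The Acaa1a window held 4 CCAAT and 3 GC boxes and had a GC content of 53.3%, whereas the Acaa1b window held 4 CCAAT boxes, of which a pair overlaps, and 0 GC boxes at 43.7% GC. CCAAT occurred on either strand in 37.4% and GGGCGG in 35.7% of 32851 mouse promoter windows of the same length. Among the 7 genes, 4 had a CCAAT box and 5 a GC box. The direct repeat of AGGTCA with 1 base between its copies, one form of the element bound by PPARA and its partner, was in none of the 8 windows and in 0.0396% of all windows, and the single element AGGTCA was in none of the 8 and in 16.3% of all. This says only that these letters are not within the 300 bases.

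Library totals lay between 17131271 and 30152301 counts. In clock genes or in clustering, 6 libraries stood apart from their labels, and leaving them out was added after seeing the data. Log2 expression of the clock gene Dbp minus that of Arntl, which peak at opposite times of day, was 3.37 in AL_0h 2 and -5.01 in AL_22h 2, against -1.40 and -4.04 in the other AL_0h and 4.87 and 4.08 in the other AL_22h libraries. AL_0h 3 clustered with CR libraries, and CR_6h 3, CR_14h 3 and CR_22h 3 clustered with AL libraries, over 2000 variable genes. Several results that rest on these libraries are given with and without them. Messenger RNA is from bulk liver, so fewer cells of a type and less RNA per cell cannot be told apart. The 8 hepatocyte markers, among them Alb, Ttr and Cps1, had a summed level of 67555 to 162640 CPM (counts divided by the scaled library size) over the 38 libraries.

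Across the 13 groups, 8 of the 9 genes were highest in fasted libraries or after a missed meal. Ehhadh ranged 13.6-fold over libraries, from 268 CPM in CR_14h 3 to 3652 CPM in F_14h 1, and Pex11a ranged 17.7-fold, from 30.4 CPM in AL_22h 2 to 538 CPM in CR_missed 3. The other genes ranged from 3.31-fold (Abcd3) to 4.78-fold (Acaa1a). Mean Ehhadh was highest in F_14h (3307 ± 341 CPM; SD, n = 3), followed by CR_missed (2133 ± 916), F_22h (1958 ± 989) and F_6h (1677 ± 526). All 4 of these groups lay above every other library, of which the highest was CR_22h 1 at 793 CPM. Of the 12 pairs of neighbours in the order of Ehhadh means, 10 overlapped in their libraries. For Abcd2 all 12 did.

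Levels of different genes can be compared only per length, which the authors' rescaled TPM (transcript abundance per length) allows. On that scale the median over 38 libraries was 963 for Acaa1b, 502 for Ech1, 277 for Ehhadh, 260 for Eci2, 247 for Abcd3, 227 for Hsd17b4, 192 for Acaa1a, 66.1 for Pex11a and 18.6 for Abcd2. The order changed with diet. In AL_14h Ehhadh averaged 158 beside 149 for Hsd17b4 and 565 for Acaa1b, and in F_14h it averaged 1624 beside 390 and 1545.

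**Figure D1:**
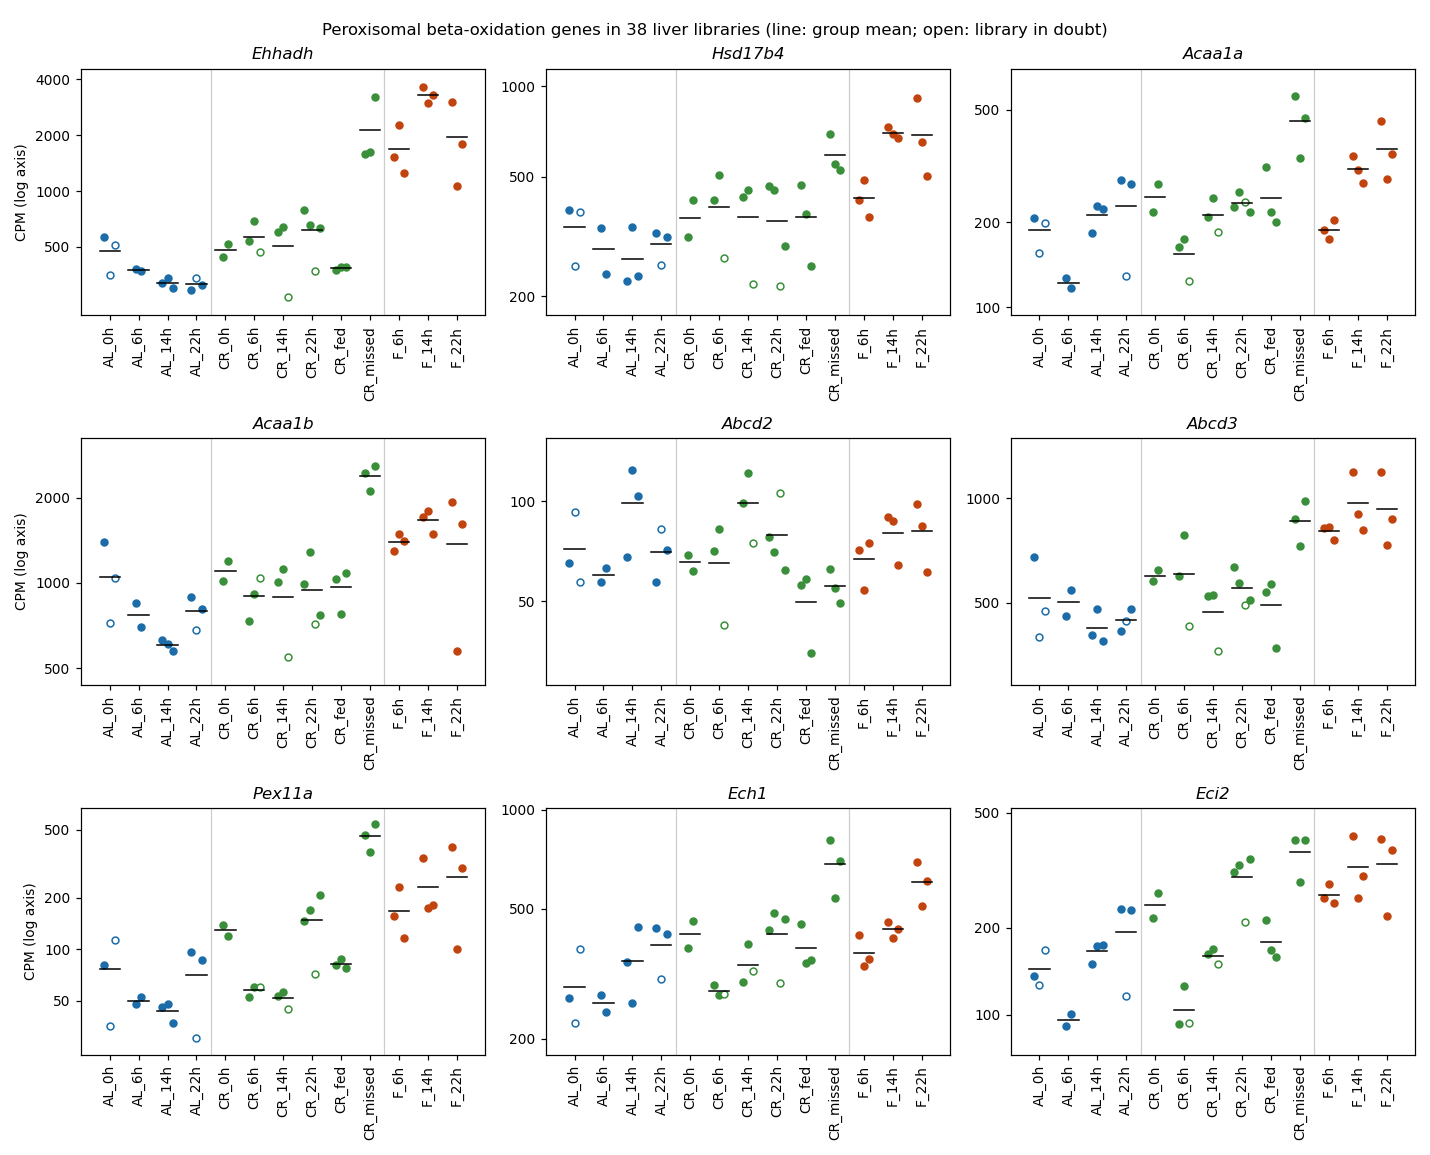
Expression of the 9 genes in every library, in CPM on a log axis, by group (blue, AL; green, CR; orange, fasted). Each point is a library, lines are group means and open points are the 6 libraries that stood apart from their labels. Ehhadh in the fasted and missed-meal libraries, 1065 CPM or more, lies above all others.

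Fasted and AL livers were compared at the 3 shared times. At 6 h, 3 of the 9 genes rose in fasted livers (Ehhadh, Pex11a and Eci2), against 1.2% of all genes tested that rose. At 14 h, 6 rose (Ehhadh, Hsd17b4, Acaa1b, Abcd3, Pex11a and Eci2), against 11.8% of all genes. At 22 h, 5 rose (Ehhadh, Hsd17b4, Abcd3, Pex11a and Eci2), against 6.06% of all genes. The median log2 fold change of the 9 genes was 0.68 at 6 h, 1.19 at 14 h and 0.80 at 22 h, beside -0.02, -0.04 and -0.03 over all genes. The libraries of both groups did not overlap for 8 of the 9 genes at 6 h (37% of all genes), 7 at 14 h (38.3%) and 6 at 22 h (34.2%).

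Abcd3 (chr3:121758774-121815302, minus strand), the more abundant transporter gene, measured 457 and 544 CPM in AL_6h and 823, 826 and 760 CPM in F_6h. At 14 h it was 404, 479 and 386 CPM in AL and 1189, 903 and 813 CPM in fasted libraries, a log2 fold change of 1.19 ± 0.23 (SE; adjusted p = 0.000478). At 22 h it was 414, 442 and 478 CPM in AL and 1195, 732 and 871 CPM in fasted libraries, a change of 1.07 ± 0.23 (adjusted p = 0.00321). Every fasted library exceeded every AL library at all 3 times, although the 6 h change, 0.68 ± 0.26, did not pass the test (adjusted p = 0.184). Abcd2 (chr15:91145871-91191799, minus strand), its relative with a preference for very long and polyunsaturated chains, passed the test at no time. Its fold changes were 0.16 ± 0.29 at 6 h, -0.29 ± 0.26 at 14 h and 0.21 ± 0.26 at 22 h, and its libraries overlapped at each time.

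Ehhadh, the L-bifunctional enzyme, changed most. It was 379 and 373 CPM in AL_6h and 1523, 2263 and 1245 CPM in F_6h, a log2 fold change of 2.16 ± 0.39 (adjusted p = 0.00175). At 14 h it was 321, 339 and 301 CPM in AL and 3652, 2969 and 3299 CPM in fasted libraries, a change of 3.37 ± 0.35 (adjusted p = 5.62e-07) or 10.3-fold. The lowest fasted library at 14 h thus lay far above the highest AL library at any hour, 565 CPM. At 22 h AL libraries held 293, 342 and 311 CPM and fasted libraries 3021, 1065 and 1787 CPM, a change of 2.63 ± 0.34 (adjusted p = 2.99e-05). The fasted libraries at 22 h were spread over a wider range than at 14 h, with F_22h 2 the lowest.

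Hsd17b4, the D-bifunctional enzyme (chromosome 18), carries out the same steps through hydroxy intermediates of the opposite stereochemistry and also acts on bile acid precursors. It was 337 and 237 CPM in AL_6h and 418, 488 and 368 CPM in F_6h, a change of 0.56 ± 0.34 that did not pass the test (adjusted p = 0.471). At 14 h it rose from 224, 340 and 234 CPM to 730, 693 and 675 CPM, by 1.39 ± 0.30 (adjusted p = 0.00138), and at 22 h by 1.21 ± 0.30 (adjusted p = 0.00837), with AL libraries at 325, 254 and 315 CPM and fasted libraries at 916, 653 and 503 CPM. Groups did not overlap at any of the 3 times. Without F_22h 1, the highest library, the 22 h change was no longer past the threshold.

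The thiolases differed in their test results. Acaa1b was 631, 610 and 577 CPM in AL_14h and 1704, 1801 and 1484 CPM in F_14h, a rise of 1.46 ± 0.30 (adjusted p = 0.000981). At 6 h the change was 0.85 ± 0.34 (adjusted p = 0.218). At 22 h it was 0.80 ± 0.30 (adjusted p = 0.0795), with AL libraries at 894, 681 and 806 CPM and fasted libraries at 1936, 575 and 1620 CPM. F_22h 2 was below all AL libraries there, and without it the change was 1.18 ± 0.27 (adjusted p = 0.00692). Acaa1a passed at none of the times, with changes of 0.63 ± 0.26, 0.55 ± 0.23 and 0.67 ± 0.23 and adjusted p of 0.244, 0.086 and 0.0592. It passed at 14 h (0.79 ± 0.23, adjusted p = 0.0156) and 22 h (0.89 ± 0.23, adjusted p = 0.0135) once a trend of fold change with transcript length was removed. At 22 h it passed in 5 of 11 alternatives, this one and DESeq2 among them, and also without AL_22h 1 or F_22h 2 (0.83 ± 0.25, adjusted p = 0.0451, without the latter). Acaa1b passed at 6 h with only the compared groups in the fit, and at 22 h with DESeq2 or the length trend removed. The summed counts of the pair rose at 14 h by 1.27 ± 0.27 (adjusted p = 0.00125), and did not pass at 6 h (0.82 ± 0.31, adjusted p = 0.176) or 22 h (0.77 ± 0.27, adjusted p = 0.0599).

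Of the isomerases, Eci2 (chr13:34977748-35027096, minus strand) rose at each time. It was 91.2 and 101 CPM in AL_6h and 253, 283 and 243 CPM in F_6h, a change of 1.43 ± 0.28 (adjusted p = 0.00397). At 14 h it was 150, 173 and 174 CPM in AL and 416, 254 and 303 CPM in fasted libraries (0.97 ± 0.24, adjusted p = 0.00458). At 22 h it was 233, 116 and 231 CPM in AL and 405, 219 and 373 CPM in fasted libraries (0.78 ± 0.24, adjusted p = 0.0339). The groups overlapped at 22 h. Without the pair of libraries of deviant clock, among them AL_22h 2 with the lowest value, the 22 h change was 0.53 ± 0.25 and did not pass (adjusted p = 0.17). Nor did it without F_22h 1 or F_22h 3. Ech1 (chr7:28825217-28832247, plus strand) passed at none of the times, with values of 0.51 ± 0.25, 0.32 ± 0.22 and 0.64 ± 0.22 (adjusted p = 0.332, 0.305 and 0.0508). Those calls depend on the processing: with the length trend removed Ech1 was 0.95 ± 0.21 at 14 h (adjusted p = 0.00244) and 1.09 ± 0.22 at 22 h (adjusted p = 0.00193). At 22 h it passed in 7 of 11 alternatives, and also without F_22h 2 (0.77 ± 0.24, adjusted p = 0.0477).

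Pex11a, the membrane protein of organelle division, was 47.9 and 52.4 CPM in AL_6h and 156, 232 and 116 CPM in F_6h, a rise of 1.74 ± 0.49 whose adjusted p of 0.0497 was just under the threshold. At 14 h it was 45.8, 47.9 and 37.0 CPM in AL and 343, 174 and 181 CPM in fasted libraries, a rise of 2.42 ± 0.43 (adjusted p = 0.00023). At 22 h it was 96.5, 30.4 and 86.9 CPM in AL and 395, 101 and 301 CPM in fasted libraries, a rise of 1.90 ± 0.42 (adjusted p = 0.00411). The groups did not overlap at any time. The 6 h calls rest on 2 AL libraries: without AL_6h 1 the count of genes that rose was 0, and without AL_6h 2 it was 1 (Ehhadh). Pex11a also lost its 6 h call without F_6h 1 or F_6h 2, with DESeq2 size factors and in every limma fit on rescaled TPM. It kept the call in 5 of 9 alternatives with all libraries.

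Whether the fasting response differed between the 3 times was tested as a difference of differences. None of the 9 genes passed, against 0.0653% of all genes, and none had an unadjusted p below 0.05 in edgeR. DESeq2 also called 0, beside 0.522% of all genes. For Ehhadh the unadjusted p was 0.0512 (adjusted p = 0.595).

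**Figure D2:**
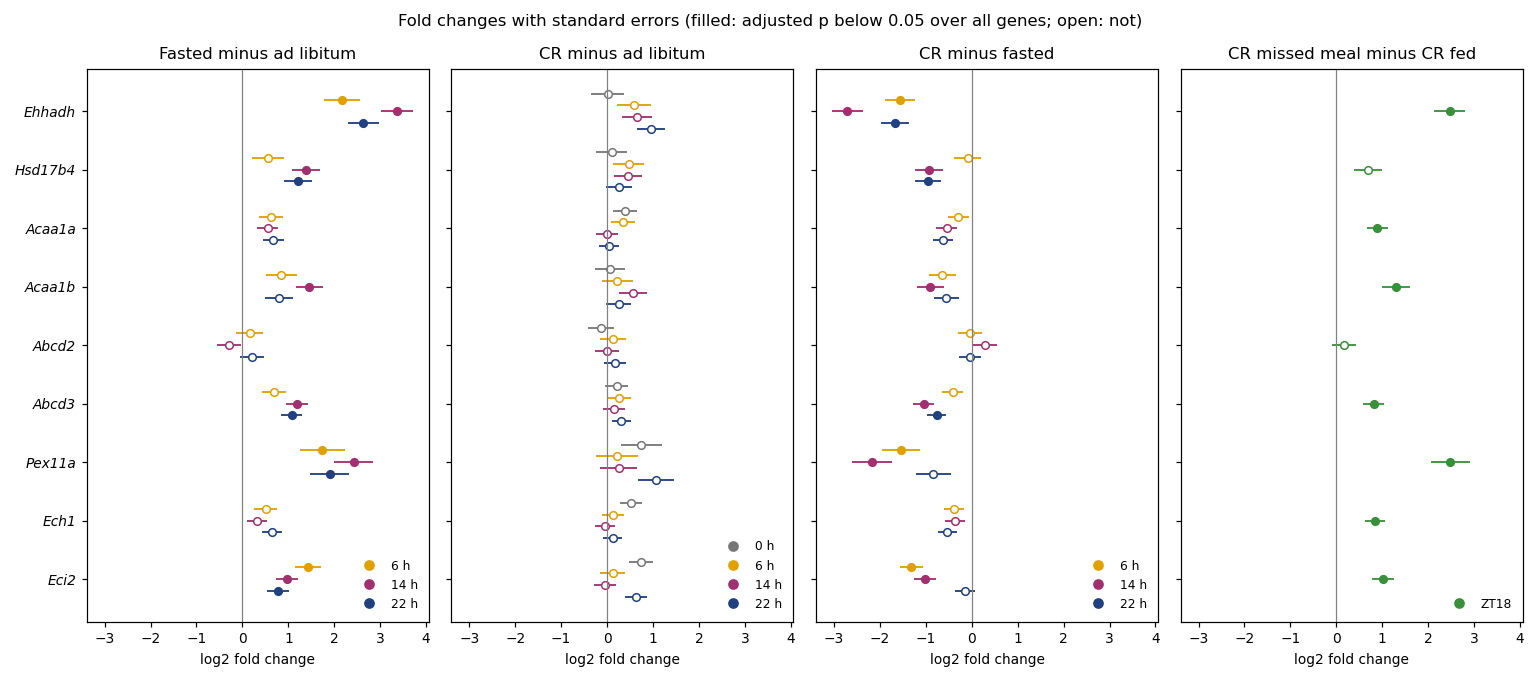
Log2 fold changes with standard errors for the 9 genes in 11 comparisons, coloured by time. Filled points passed the test at an adjusted p of 0.05 over all genes and open points did not. Ehhadh and Pex11a lie farthest right in fasted livers and after a missed meal, and all points of CR minus AL are open.

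CR and AL livers were compared at 0, 6, 14 and 22 h. None of the 9 genes passed at any of the 4 times with edgeR, where 0.479%, 0%, 0.0218% and 4.88% of all genes did. Unadjusted p-values were below 0.05 for 2, 0, 0 and 3 genes. DESeq2 called 0, 0, 0 and 2 of the 9, beside 1.76%, 0.0653%, 0.501% and 8.12% of all genes. The medians of the 9 genes were 0.21, 0.22, 0.15 and 0.26, beside -0.01, 0.01, -0.01 and 0.00 over all genes. Groups did not overlap for 4, 3, 0 and 2 of the 9 genes, shares that stood at 28.1%, 16%, 9.68% and 15.1% of all genes.

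At 22 h, Ehhadh was 793, 657, 370 and 634 CPM in CR_22h and 293, 342 and 311 CPM in AL_22h, a change of 0.96 ± 0.31 (adjusted p = 0.064). Pex11a was 146, 170, 71.7 and 207 CPM in CR and 96.5, 30.4 and 86.9 CPM in AL, a change of 1.06 ± 0.39 (adjusted p = 0.107). Eci2 was 311, 330, 210 and 347 CPM in CR and 233, 116 and 231 CPM in AL, a change of 0.63 ± 0.23 (adjusted p = 0.101). All 4 CR libraries exceeded all AL libraries for Ehhadh, and 3 of 4 did for Pex11a and Eci2. CR_22h 3, the lowest CR library in each case, is one of those that clustered with AL. Without it the 3 genes passed, with changes of 1.14 ± 0.31 (adjusted p = 0.0165) for Ehhadh, 1.29 ± 0.39 (adjusted p = 0.0295) for Pex11a and 0.77 ± 0.23 (adjusted p = 0.029) for Eci2. Without all 6 libraries in doubt, which also removes AL_22h 2, Ehhadh alone passed (1.22 ± 0.32, adjusted p = 0.0133). Pex11a (0.95 ± 0.36, adjusted p = 0.0834) and Eci2 (0.53 ± 0.23, adjusted p = 0.14) did not. Calls also rose over all genes, from 4.88% with all libraries to 12.1% without these 6. Without the 4 libraries that cluster with another diet, 14.8% of all genes passed. The share without CR_22h 3 alone is not given here. The gains are therefore not shown to be particular to these genes.

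At 0 h, CR libraries held 216 and 264 CPM of Eci2 and AL libraries 136, 127 and 168 CPM, a change of 0.74 ± 0.27 (adjusted p = 0.243). Pex11a was 138 and 120 CPM in CR_0h and 81.6, 35.6 and 114 CPM in AL_0h, without overlap (0.75 ± 0.45, adjusted p = 0.609). Ech1 was 380 and 457 CPM in CR_0h and 266, 224 and 377 CPM in AL_0h (0.53 ± 0.24, adjusted p = 0.391). Ehhadh did not separate, at 439 and 521 CPM in CR_0h and 565, 353 and 510 CPM in AL_0h (0.01 ± 0.36, adjusted p = 1). Whether the CR effect differed between times was also tested, and 0 of the 9 genes passed, against 0.442% of all genes. None had an unadjusted p below 0.05, and DESeq2 called 0, beside 2.23% of all genes.

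Livers of CR mice were next set against fasted livers. These comparisons use the same fasted libraries as those above. In CR livers 3 genes were lower at 6 h (Ehhadh, Pex11a and Eci2; 3.41% of all genes were lower), 6 at 14 h (7.97% of all genes) and 3 at 22 h (Ehhadh, Hsd17b4 and Abcd3; 4.32% of all genes). Groups did not overlap for 5, 8 and 5 genes, against 27.7%, 32.4% and 16.8% of all genes. The medians were -0.41, -0.93 and -0.63, beside 0.02, 0.03 and 0.01 over all genes.

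Ehhadh fell by 1.56 ± 0.33 at 6 h (adjusted p = 0.00327), by 2.71 ± 0.34 at 14 h (adjusted p = 4.05e-06) and by 1.67 ± 0.30 at 22 h (adjusted p = 0.000518) in CR relative to fasted livers. CR libraries held 471 to 691 CPM at 6 h, 268 to 644 CPM at 14 h and 370 to 793 CPM at 22 h, all below the lowest fasted library at that hour. Pex11a was lower by 1.54 ± 0.42 at 6 h (adjusted p = 0.0218) and 2.17 ± 0.43 at 14 h (adjusted p = 0.000783), when CR libraries held 53.0 to 60.7 and 44.8 to 56.7 CPM. Its 6 h call was lost without any single CR_6h library or F_6h 2. At 22 h Pex11a, at -0.84 ± 0.38, did not pass (adjusted p = 0.162). There the CR libraries, 71.7 to 207 CPM, overlapped the fasted ones, 101 to 395 CPM. Eci2 likewise passed at 6 h (-1.32 ± 0.25, adjusted p = 0.00092) and 14 h (-1.01 ± 0.24, adjusted p = 0.00448) and not at 22 h (-0.15 ± 0.22, adjusted p = 0.729).

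The other genes lower at 14 h were Abcd3 (-1.04 ± 0.23, adjusted p = 0.00218), Hsd17b4 (-0.93 ± 0.30, adjusted p = 0.0298) and Acaa1b (-0.90 ± 0.30, adjusted p = 0.0365). CR_14h 3, which clustered with AL, was the lowest CR library for all 3. Without it Hsd17b4 (-0.67 ± 0.31, adjusted p = 0.167) and Acaa1b (-0.64 ± 0.32, adjusted p = 0.189) did not pass, and Abcd3 did (-0.89 ± 0.25, adjusted p = 0.0219). Hsd17b4 and Acaa1b also did not pass without any single F_14h library. The summed thiolase counts were lower by 0.84 ± 0.27 (adjusted p = 0.0306). With the length trend removed, Acaa1a (-0.72 ± 0.23, adjusted p = 0.0327) and Ech1 (-0.79 ± 0.21, adjusted p = 0.0119) passed at 14 h as well, and both passed at 22 h. At 22 h Hsd17b4 (-0.95 ± 0.28, adjusted p = 0.0248) and Abcd3 (-0.76 ± 0.21, adjusted p = 0.0196) were lower. Hsd17b4 did not pass without CR_22h 3 (-0.77 ± 0.28, adjusted p = 0.068), CR_22h 4, F_22h 1 or F_22h 2, nor with only the compared groups in the fit, and did without all 6 libraries in doubt (-0.76 ± 0.23, adjusted p = 0.0304). The count at 22 h was 1 without F_22h 1.

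The missed meal was compared with the fed state in CR mice at zeitgeber time 18. In livers of mice that missed the meal 7 of the 9 genes rose, all but Hsd17b4 and Abcd2, against 6.34% of all genes. Groups did not overlap for 8 genes (34.5% of all genes), and the median change was 0.89, beside -0.01 over all genes. Pex11a was 81.1, 87.7 and 77.8 CPM in CR_fed and 464, 373 and 538 CPM in CR_missed, a rise of 2.48 ± 0.43 (adjusted p = 0.000341). Ehhadh was 376, 388 and 390 CPM in CR_fed and 1578, 1631 and 3191 CPM in CR_missed, a rise of 2.47 ± 0.34 (adjusted p = 2.5e-05). The groups lay far apart in both genes, and CR_missed 3 held the highest value.

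Acaa1b, at 1032, 779 and 1084 CPM in CR_fed, reached 2436, 2114 and 2593 CPM in CR_missed, the highest 3 levels of this gene among all 38 libraries (1.30 ± 0.30, adjusted p = 0.005). Acaa1a was 314, 218 and 201 CPM in CR_fed and 560, 337 and 467 CPM in CR_missed (0.89 ± 0.23, adjusted p = 0.0116). The summed counts of the thiolase pair rose by 1.23 ± 0.27 (adjusted p = 0.00326). Ech1 rose by 0.84 ± 0.22 (adjusted p = 0.0108) and Eci2 by 1.02 ± 0.24 (adjusted p = 0.00617), so that both isomerases moved together here. Abcd3 rose by 0.81 ± 0.23 (adjusted p = 0.0175). Hsd17b4 was 468, 377 and 253 CPM in CR_fed and 694, 550 and 528 CPM in CR_missed, with no overlap, but its change of 0.69 ± 0.30 did not pass (adjusted p = 0.128). With replicate numbers as pairs and only these 6 libraries in the fit it did (0.71 ± 0.17, adjusted p = 0.0206). Of 10 alternatives this was the only 1 in which Hsd17b4 passed, and it was added after seeing the data. In that fit 24.5% of all genes passed in either direction, against 12.5% in the main fit. For Abcd2 the value was 0.16 ± 0.26 (adjusted p = 0.76). Single libraries decided some calls. Acaa1a did not pass without CR_fed 2, CR_fed 3 or CR_missed 1, Abcd3 without CR_fed 3 or CR_missed 3, and Ech1 without CR_missed 1. CR_fed 3 clustered with the CR_0h libraries and AL_0h 3, apart from CR_fed 1 and CR_fed 2. Its nearest library was AL_0h 3, itself in doubt.

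The response to the missed meal was set against that to the fast at 22 h, F_22h minus AL_22h. The difference of the responses passed for 0 of the 9 genes, against 0.885% of all genes. None had an unadjusted p below 0.05, and DESeq2 called 0, beside 2.68% of all genes. It was 0.16 ± 0.46 for Ehhadh, -0.58 ± 0.58 for Pex11a, -0.51 ± 0.42 for Acaa1b, -0.46 ± 0.38 for the summed thiolase counts and 0.52 ± 0.42 for Hsd17b4, where a positive value is a larger response to the fast. A p that misses the threshold does not show that the responses were equal.

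Change over time was tested within each diet. In CR livers, leaving out the zeitgeber 18 groups, 2 of the 9 genes changed between 0, 6, 14 and 22 h. That count is near the share of all genes that changed, 20.6%. Eci2 averaged 240 ± 34.5 CPM (SD, n = 2) at 0 h, 104 ± 19.0 (n = 3) at 6 h, 160 ± 9.82 (n = 3) at 14 h and 299 ± 61.3 (n = 4) at 22 h (adjusted p = 0.000156). Pex11a averaged 129 ± 13.4, 57.9 ± 4.27, 51.7 ± 6.15 and 149 ± 57.3 CPM at the same times (adjusted p = 0.00794). Both genes were low at 6 and 14 h and high at 0 and 22 h, and for Pex11a no library at 6 or 14 h reached the lowest at 0 or 22 h. Ehhadh, at 480, 567, 504 and 613 CPM, did not pass (adjusted p = 0.792). Without CR_22h 3, Ech1 passed as well (adjusted p = 0.0397). Values of the time test for Pex11a and Eci2 without the CR libraries in doubt are not given here.

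In fasted livers 1 gene passed, beside 2.86% of all genes. Acaa1a averaged 188 ± 15.0 CPM at 6 h, 308 ± 33.8 at 14 h and 363 ± 86.0 at 22 h (SD, n = 3 each; adjusted p = 0.0454), and no library at 6 h reached the others. This call was lost without any single F_6h or F_14h library, F_22h 1 or F_22h 3. The summed thiolase counts did not pass (adjusted p = 0.785 in fasted and 0.622 in AL livers). In AL livers 0 passed, beside 0.276% of all genes, with 2 genes at an unadjusted p below 0.05. DESeq2 made 0 calls there, beside 1.47% of all genes. Without AL_22h 2, the library with a deviant clock, Acaa1a (adjusted p = 0.0348) and Eci2 (adjusted p = 0.0377) passed. Acaa1a was 127 and 117 CPM in AL_6h and 283 and 274 CPM in AL_22h 1 and 3, whereas AL_22h 2 held 129 CPM.

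Ratios within a library remove its scaling. Ehhadh over Hsd17b4, the L- over the D-bifunctional enzyme, was between 0.708 and 1.87 on the rescaled TPM scale in all AL and CR libraries outside the missed meal. It was 3.41 ± 0.596 in F_6h, 4.16 ± 0.341 in F_14h, 2.49 ± 0.915 in F_22h and 3.31 ± 1.76 in CR_missed (SD, n = 3 each). F_22h 2, at 1.44, was the exception among fasted libraries, and CR_missed 3 had the highest ratio, 5.31. Acaa1b made up 68.6 to 90.7% of the thiolase pair, with 76.0 ± 3.19% in AL_14h and 85.6 ± 1.16% in F_14h. Abcd3 exceeded Abcd2 in every library, by 7.35 ± 1.98 times in AL_14h, 20.3 ± 2.97 in F_14h and 25.6 ± 5.87 in CR_missed (SD, n = 3 each). These ratios are descriptions and were not tested.

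**Figure D3:**
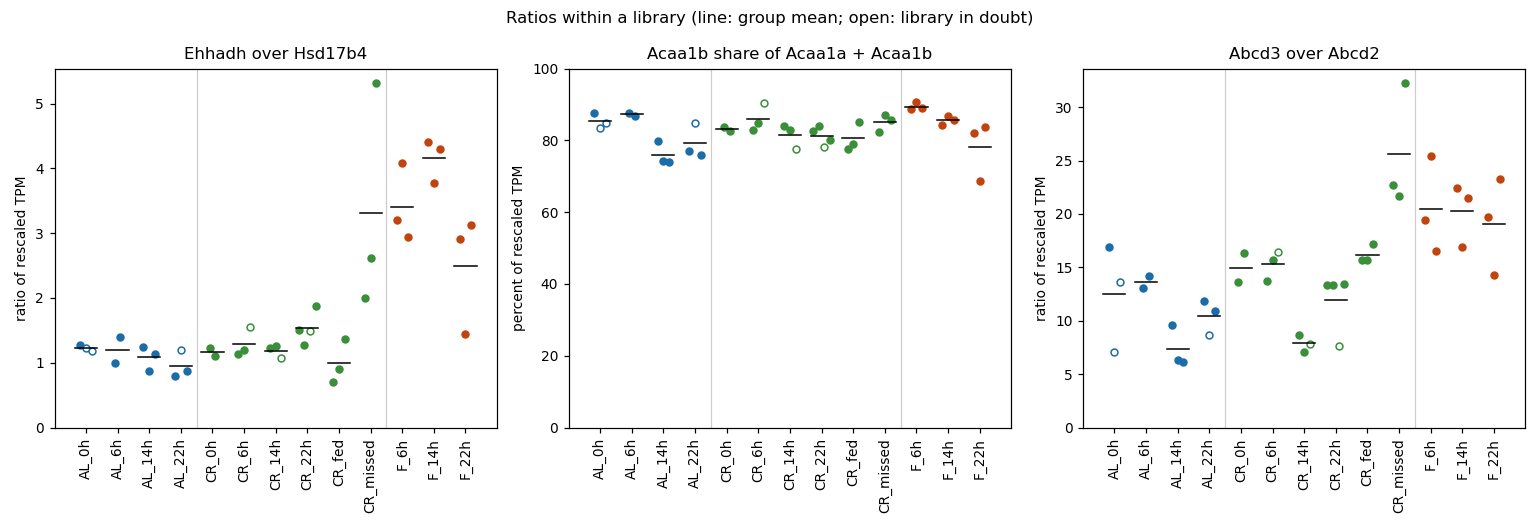
Ratios of genes within each library on the rescaled TPM scale, by group (blue, AL; green, CR; orange, fasted). Points are libraries, lines are group means and open points are the 6 libraries that stood apart. Ehhadh over Hsd17b4 stays at or below 1.87 outside the fasted and missed-meal groups.

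Other genes of peroxisomes and of mitochondrial beta-oxidation were read from 5 lists. Of 28 further genes of peroxisomal beta-oxidation and acyl-CoA handling, 4 rose and 0 fell in fasted livers at 6 h, 8 rose and 3 fell at 14 h, and 10 rose and 0 fell at 22 h. After the missed meal 9 rose and 1 fell. Of all genes tested, 2.34%, 24.5% and 11.5% passed in either direction in fasted livers at these times, and 12.5% after the missed meal. In the same order 1.2%, 11.8%, 6.06% and 6.34% rose, and these shares also apply to the lists that follow. Crat, carnitine acetyltransferase, rose by 2.32 ± 0.40 at 14 h (adjusted p = 0.000162), and Crot, which makes medium-chain acylcarnitines for export from peroxisomes, by 1.74 ± 0.32 after the missed meal (adjusted p = 0.000608). Eci3, an isomerase related to Eci2, fell by 2.33 ± 0.65 at 14 h (adjusted p = 0.00937), from 8.05 ± 4.29 to 1.60 ± 0.385 CPM.

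The 15 peroxins, which build the organelle and import its enzymes, were read next. In fasted livers 3 rose and 2 fell at 14 h, and 2 rose and 0 fell at 22 h. After the missed meal 2 rose and 0 fell. Of all genes, 24.5%, 11.5% and 12.5% passed in these comparisons. Pex19, a chaperone of membrane proteins, rose by 0.82 ± 0.19 at 14 h (adjusted p = 0.0022). Pex7, a receptor for import, fell by 0.97 ± 0.21 (adjusted p = 0.00142), and so did Pex11g, a relative of Pex11a (-0.81 ± 0.24, adjusted p = 0.0159). The list medians were 0.08, 0.15 and 0.05 in fasted livers at the 3 times and 0.17 after the missed meal.

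Among 19 other peroxisomal proteins 3 rose and 6 fell in fasted livers at 14 h, and 1 rose and 4 fell at 22 h. Of all genes, 24.5% and 11.5% passed. Hao1, a hydroxyacid oxidase, fell by 1.10 ± 0.23 at 14 h (adjusted p = 0.00119) and by 1.15 ± 0.23 at 22 h (adjusted p = 0.00201), and Ephx2, an epoxide hydrolase, rose by 1.31 ± 0.23 at 14 h (adjusted p = 0.00016). Cat, the catalase that breaks down hydrogen peroxide, passed in none of the 11 comparisons, and in fasted against AL livers at 14 h was -0.43 ± 0.21 (adjusted p = 0.137). Of the 16 mitochondrial beta-oxidation genes 0 passed in fasted livers at 6 h. At 14 h 9 rose and 1 fell, at 22 h 10 rose, and after the missed meal 9 rose. In these last 3 comparisons 11.8%, 6.06% and 6.34% of all genes rose. Hadha and Hadhb, the mitochondrial trifunctional protein, rose by 1.21 ± 0.25 and 1.22 ± 0.25 at 14 h (adjusted p = 0.000878 and 0.00102). Cpt2, which rebuilds acyl-CoAs inside mitochondria, rose by 1.17 ± 0.28 at 14 h (adjusted p = 0.00311).

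Ppara itself averaged 49.3 ± 31.2 CPM in AL_14h and 129 ± 20.1 in F_14h (1.38 ± 0.34, adjusted p = 0.00397). It rose by 1.32 ± 0.34 at 22 h (adjusted p = 0.011) and by 2.07 ± 0.35 after the missed meal (adjusted p = 0.000232), and passed in no CR against AL comparison. Of 15 regulators, 8 rose and 1 fell in fasted livers at 14 h (24.5% of all genes passed). Among those that rose were the coactivator genes Lpin1 (3.45 ± 0.72, adjusted p = 0.000942) and Ppargc1a (1.35 ± 0.42, adjusted p = 0.0178). In CR against AL livers at 22 h, 1 of the 28 further beta-oxidation genes rose, 1 of the 19 other peroxisomal proteins fell, 3 regulators rose and 2 fell, and 0 peroxins and 0 mitochondrial genes passed, beside 4.88% of all genes.

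**Figure D4:**
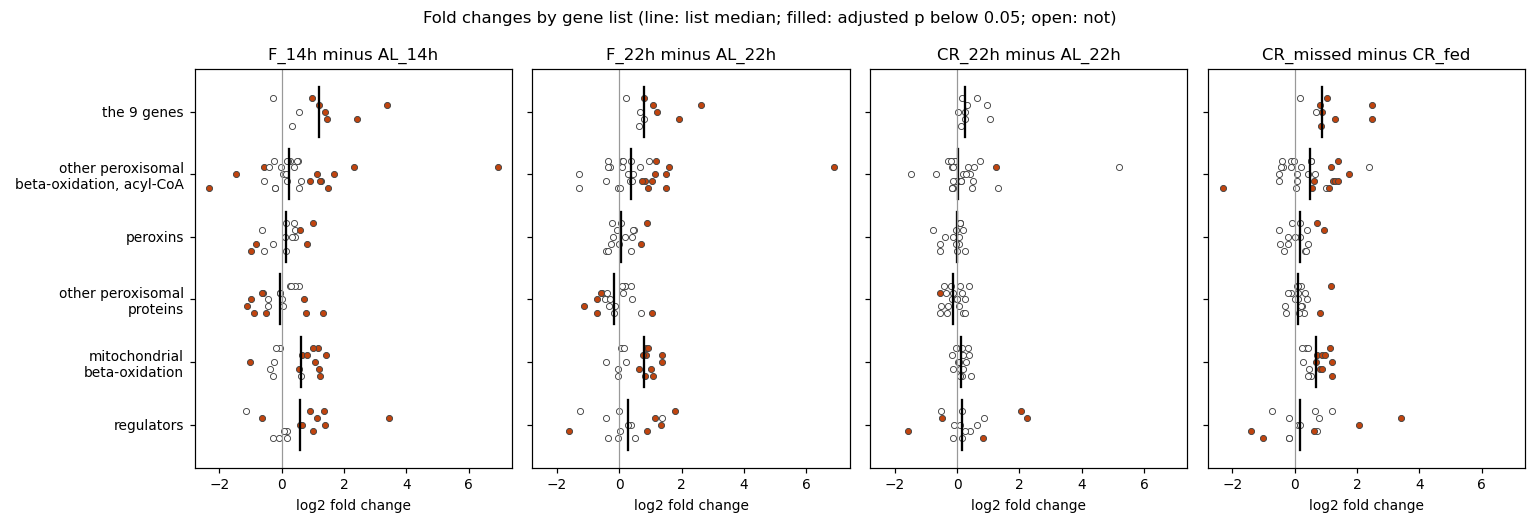
Log2 fold changes of the 9 genes and 5 other lists in 4 comparisons. Each point is a gene, filled where it passed the test, and the lines are list medians. The median of the 9 genes is 1.19 in fasted livers at 14 h and that of the peroxins 0.15.

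Markers of other cell types moved with some comparisons. The summed level of 6 red blood cell markers was 947 to 2342 CPM in CR_fed and 4671 to 14418 CPM in CR_missed, and 303 to 5858 CPM in AL_14h and 1555 to 3359 CPM in F_14h. The 7 sinusoidal endothelial markers summed to 123 to 155 CPM in CR_fed and 209 to 234 in CR_missed, and to 62.1 to 155 in AL_14h and 225 to 282 in F_14h. The 7 stellate cell markers summed to 233 to 260 CPM in CR_fed and 333 to 413 in CR_missed. The 8 hepatocyte markers summed to 133165 to 139527 CPM in AL_14h and 89026 to 110449 in F_14h. The 8 Kupffer cell markers summed to 329 to 442 CPM in AL_22h and 116 to 315 in CR_22h, and the 7 lymphocyte markers to 17.6 to 23.6 and 3.0 to 21.7 CPM. The 6 cholangiocyte markers summed to at most 84.9 CPM. The 7 acinar pancreas markers summed to at most 52.2 CPM, in 1 F_14h library, with 4.27 and 5.02 in the others. The 7 adipocyte markers summed to at most 47.6 CPM, in 1 CR_fed library, with Adipoq at 0 in 19 and Lep at 0 in 36 libraries. The part of these shifts in the results above was not tested.

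Reads were not stranded, so reads from exon sequence that overlapping genes share cannot be told apart by strand. The overlaps given here are between whole gene spans, introns included. How much of them lies in exons was not measured. Acaa1a overlaps Slc22a14 over 10624 bases and Myd88 over 1736 bases, and Acaa1b overlaps Dlec1 over 224 bases. Slc22a14 held 0 to 2 counts per library, Myd88 232 to 646 and Dlec1 0 to 45, beside 2904 to 10234 counts for Acaa1a and 10099 to 53323 for Acaa1b. In the annotation Eci2, Pex11a, Abcd3, Hsd17b4 and Ehhadh also overlap genes outside the protein-coding count table, for Eci2 an antisense gene over 12705 bases and for Pex11a one over 1339 bases. Reads of those genes were not analysed here.

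The genes most like each of the 9 were found by Pearson correlation of mean log2 CPM over the 13 groups, among 8871 genes. This is a description over group means that share libraries and scaling. For Ehhadh they were Abcb4 (0.974), which encodes a phospholipid exporter of bile, then Tmem56 (0.971), Aass (0.968), Tram2 (0.964) and Sec23a (0.962). For Hsd17b4 they were Ephx2 (0.981), Acad11 (0.981) and Hadha (0.978), and for Abcd3 Acad11 (0.969), Bace1 (0.965) and Cyp4a10 (0.960). Acaa1b was closest to Acot1 (0.961), an acyl-CoA thioesterase gene that ranged from 10.0 to 1298 CPM over single libraries. Pex11a was closest to Ddhd2 (0.986) and the carnitine transporter gene Slc22a5 (0.977). Acaa1a and Ech1 shared Dhrs4 and Acadl among their closest genes, and Eci2 was closest to Por (0.962) and Angptl4 (0.946). Abcd2 was closest to Nr1d1 (0.910), a repressor of the circadian clock.

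Among the 9 genes themselves, Ehhadh was most like Abcd3 (0.97) and Hsd17b4 (0.94), and Acaa1a was most like Ech1 (0.96). Abcd2 correlated with no other at more than 0.09. Its highest group means were in AL_14h (98.6 ± 28.4 CPM) and CR_14h (98.5 ± 23.3), and its lowest in CR_fed (49.8 ± 12.9, SD, n = 3 each). The change over time passed in no diet (adjusted p = 0.526 in AL, 0.24 in CR and 0.778 in fasted livers). With the length trend removed Abcd2 passed in CR (adjusted p = 0.0456), where 21.6% of all genes did.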

How the data were processed

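Polyadenylated RNA from 30 mg of liver was sequenced as unstranded paired reads of 150 bases, per the labels' protocols. The authors aligned reads with Bowtie, allowing at most 2 mismatches, and estimated expected counts per Ensembl protein-coding gene (GRCm38) with RSEM 1.2.3, per the labels' protocols and the submitters' processing notes. A second deposited table holds TPM rescaled between libraries with EBSeq (unit: signal), per the labels; it was used for levels between genes, ratios and an alternative test.

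Expected counts were rounded and fitted for all 38 libraries and 13 groups in 1 model with edgeR 4.0.16 (R 4.3.3; filterByExpr, TMM, quasi-likelihood F test, Benjamini-Hochberg adjustment over 13786 genes, threshold 0.05). The fit made 11 comparisons of pairs of groups and 6 other tests, 3 of change over time within a diet and 3 of differences between effects. Standard errors were derived from F, as the size of the log2 change over its root. The comparisons F with AL, CR with AL and CR with F share libraries. Library totals of 17131271 to 30152301 counts gave the 9 genes at least 678 counts per library, so the spread between libraries and not counting limits precision. The edgeR fit was also run on simulated counts with known changes in F_22h. This covered F_22h vs AL_22h, change over time in fasted livers and the fasting response over time. Other comparisons and the alternative methods were not tested in this way, and the outcome is not given here.

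The 9 genes and all lists were chosen with earlier results of these data known. Of the other lists, the called genes with the 3 largest changes in each direction could be named, and Cat, Ppara and Cpt2 whatever their value; some genes that the rule names are not reported here. The most similar genes had to reach a mean of 5 CPM. With all libraries in the fit, replicate numbers entered as a block in 1 of the alternatives, for every comparison. In a fit of the compared groups alone, they were taken as pairs for CR_missed and CR_fed only. There, deviations of same-numbered libraries from their group means correlated at 0.14 to 0.20. In the other comparisons at least 1 pair was at or below 0.1. Alternatives were DESeq2 1.42.0 (size factors or whole test), no filter, a replicate block, only the compared groups, limma 3.58.1 on log2 rescaled TPM (pseudocount 1 or 0.1), a correction for transcript length and leaving out libraries. Leaving out the libraries in doubt, and the block within the CR_missed and CR_fed libraries alone, were added after seeing the data.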

Additional observations from a re-analysis of the deposited data

How the results depend on the processing

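The fold changes of the 9 genes were recomputed under the alternatives, 1878 values in all. Of these, 50 lost their call, 40 gained one and 77 changed sign, of which 0 passed the threshold and the largest was 0.34 in size. The count of genes that passed was within 1.5 times under all alternatives run for F_14h vs AL_14h, CR_14h vs F_14h, CR_6h vs F_6h and CR_missed vs CR_fed. The cause of the changes below was not tested.

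In F_22h vs AL_22h, 8 genes passed with DESeq2 (14.7% of all genes) and 8 with the length trend removed (9.17%), and 3 to 8 with 1 library left out. In F_6h vs AL_6h the latter range was 0 to 3. In CR_22h vs AL_22h, 2 genes passed with DESeq2 (8.12% of all genes) and 3 without the 4 libraries that cluster with another diet (14.8%). Without the 6 in doubt 1 passed, near the 12.1% of all genes, and 0 to 3 passed with 1 library left out. In CR_22h vs F_22h, 1 passed with only the compared groups (2.07% of all genes), 5 with the length trend removed (9.61%) and 1 to 3 with 1 library left out. For change over time in AL, 2 passed without the deviant clock libraries and 2 without the 6 in doubt (3.2% of all genes). With 1 left out, 0 to 2 passed. For change over time in fasted livers, 0 passed with no filter (1.92% of all genes), 2 with DESeq2 (5.55%) and 2 with only the compared groups (5.63%). With 1 library left out, 0 to 1 passed. With the replicate block, 7 genes passed in F_22h vs AL_22h (14.9% of all genes), and the count was unchanged in the other comparisons with all libraries. Without the deviant clock libraries, 3.68% of all genes changed over time in AL. Shares of all genes with 1 library left out are not given here.

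Log2 fold changes with a changed sign follow. With the length trend removed, the sign changed, with values in F_22h vs AL_22h Abcd2 -0.131, in CR_14h vs AL_14h Ech1 0.158, Eci2 0.051, in CR_6h vs F_6h Abcd2 0.01, in CR_22h vs F_22h Abcd2 0.161, in fast at 22 h against missed meal Abcd2 -0.158, Ech1 0.221, Eci2 0.009. With the replicate block, the sign changed, with values in CR_0h vs AL_0h Ehhadh -0.047, Hsd17b4 -0.057, in CR_22h vs F_22h Abcd2 0.1. Without the 2 libraries of a deviant clock, the sign changed, with values in CR_0h vs AL_0h Ehhadh -0.176, Hsd17b4 -0.089, Acaa1b -0.147, Abcd2 0.088, in CR_22h vs AL_22h Acaa1a -0.23, Ech1 -0.01. Without the 6 libraries in doubt, the sign changed, with values in CR_0h vs AL_0h Ehhadh -0.241, Hsd17b4 -0.093, Acaa1b -0.338, Abcd2 0.003, Abcd3 -0.183, in CR_14h vs AL_14h Abcd2 0.172, Ech1 0.005, Eci2 0.013, in CR_22h vs AL_22h Acaa1a -0.229, in CR_6h vs F_6h Hsd17b4 0.14, Abcd2 0.215. Abcd2 in CR_14h vs AL_14h was 0.003 with no filter, 0.001 with only the compared groups, and 0.011, 0.013 and 0.011 with limma on rescaled TPM at a pseudocount of 1, of 0.1 and without a minimum mean. Without the 4 libraries that cluster with another diet, the sign changed, with values in CR_14h vs AL_14h Abcd2 0.166, Ech1 0.001, Eci2 0.009, in CR_22h vs AL_22h Abcd2 -0.009, in CR_6h vs F_6h Hsd17b4 0.128, Abcd2 0.204. With 1 library left out at a time, the lowest and highest values were these. In CR_0h vs AL_0h, the ranges were Ehhadh -0.177 to 0.153, Hsd17b4 -0.11 to 0.291, Acaa1b -0.148 to 0.33, Abcd2 -0.272 to 0.087. In CR_6h vs AL_6h, the ranges were Abcd2 -0.079 to 0.39, Eci2 -0.043 to 0.221. In CR_14h vs AL_14h, the ranges were Acaa1a -0.106 to 0.094, Abcd2 -0.21 to 0.197, Ech1 -0.217 to 0.166, Eci2 -0.111 to 0.001. In CR_22h vs AL_22h, the ranges were Acaa1a -0.248 to 0.24, Abcd2 -0.005 to 0.299, Ech1 -0.03 to 0.251. In CR_6h vs F_6h, the ranges were Hsd17b4 -0.306 to 0.141, Abcd2 -0.237 to 0.216. In CR_22h vs F_22h, the ranges were Abcd2 -0.211 to 0.121, Eci2 -0.371 to 0.017. In CR_missed vs CR_fed, the ranges were Abcd2 -0.04 to 0.308. In fast at 22 h against missed meal, the ranges were Ehhadh -0.295 to 0.573, Abcd2 -0.113 to 0.246.

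Groups of 2 to 4 libraries limit these tests more than depth does, since each of the 9 genes had at least 678 counts in each library. Comparisons with AL_6h or CR_0h rest on 2 libraries of that group.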

Other observations

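CR_22h 4 was, over 2000 variable genes, nearest to a missed-meal library (CR_missed 2). Its Pex11a (207 CPM) and Eci2 (347 CPM) were the highest of the CR_22h group, whereas its Ehhadh (634 CPM) was within the range of the others, and below the 1631 CPM of CR_missed 2.

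F_22h 2 differed among genes from the other libraries of its group. It held 1065 CPM of Ehhadh against 3021 and 1787, 101 CPM of Pex11a against 395 and 301, and 575 CPM of Acaa1b against 1936 and 1620. Its Hsd17b4 (653 CPM against 916 and 503) and Abcd2 (84.1 CPM against 98.4 and 61.3) lay between the others. Its Acaa1b made up 68.6% of the thiolase pair on the rescaled TPM scale, the lowest share of the 38 libraries.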
